A study of Homo sapiens with 12 samples.

Results

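The steroid hormone receptor genes *ESR1*, *PGR* and *NR3C1* and the luminal transcription factor genes *FOXA1*, *GATA3*, *TFAP2A*, *TFAP2C* and *SPDEF* were followed across an RNA sequencing experiment in ZR-75-1 cells, a human breast cancer line that expresses the oestrogen receptor. The 8 genes were chosen by symbol, for what they encode, with earlier results of these data known. They were 8 of the 60612 rows with a gene name in the table. All cells were CRISPR-derived clones grown from single sorted cells. sgControl cells had received a guide RNA with no target, and *RB1*-knockout cells a guide against *RB1*, which encodes the retinoblastoma protein Rb. Each was kept for 5 days in 500 nM abemaciclib, which blocks CDK4 and CDK6, or in the same volume of DMSO, in RPMI-1640 medium with serum. The 4 groups had 3 replicates each (12 libraries). Because each genotype can rest on few clones, an effect of *RB1* loss and a difference between clones cannot be told apart. The study describes its RNA sequencing replicates as biologically independent, and the labels do not say whether those of 1 genotype came from 1 clone or several, so the p-values measure the spread between these libraries and not that between clones.

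A steroid receptor is a transcription factor that is switched on by a hormone. The oestrogen receptor (*ESR1*) drives growth and hormone-dependent transcription in luminal breast cells, the progesterone receptor (*PGR*) is itself a well-known oestrogen target, and the glucocorticoid receptor (*NR3C1*) responds to cortisol. *FOXA1* encodes a pioneer factor that opens chromatin for the oestrogen receptor, *GATA3* a zinc-finger factor that works with both to keep luminal identity, *TFAP2A* and *TFAP2C* the AP-2 factors alpha and gamma, which bind GC-rich sites and occur in luminal cells, and *SPDEF* an ETS factor of secretory epithelium. Rb restrains E2F-driven transcription and is switched off when CDK4 and CDK6 phosphorylate it, so the design asks which effects of abemaciclib need Rb.

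The targeted gene was checked first. *RB1* had 4154, 4825 and 4752 normalised counts in DMSO-treated sgControl cells and 40 to 51 in DMSO-treated *RB1*-knockout cells. In abemaciclib it had 2252 to 2489 counts where *RB1* was intact and 44 to 64 where it was knocked out, so no library went against its label. A normalised count is a read count divided by the library's size factor, and the total count per library was 39907318 to 81636393. All 10 luminal epithelial markers had reads in every library, *KRT7* the fewest (510 to 1272 raw counts), followed by *CLDN3* (3703 to 6197). Markers of other lineages were mixed. *KRT6B*, *SOX10* and *CD3E* had no read in any library and *KRT5*, *KRT14*, *TP63*, *VIM* and *COL1A2* at most 6, but 7 of 12 basal and myoepithelial, 6 of 9 mesenchymal and 4 of 12 stromal and immune markers had a mean of at least 10 raw counts over the 12 libraries. The most abundant, named after their values were seen, were *CDH3*, the P-cadherin gene, with 3927 to 13366 raw counts per library, and *COL1A1*, a collagen gene, with 1375 to 3797. *ACTA2* (129 to 795), *OXTR* (191 to 781), *FOXC1* (220 to 404), *FN1* (230 to 1388), *TWIST1* (537 to 1168) and *CDH2* (592 to 1593) also had reads in every library. The replicates of DMSO-treated sgControl cells stood furthest apart, with a chi-square per gene of 16.56 to 95.25 between pairs, against 3.32 to 16.38 in the other groups. Mitochondrial genes took 2.82% to 3.99% of all counts of DMSO-treated sgControl cells and 7.22% to 8.53% in abemaciclib, 3.78% to 4.13% in DMSO-treated *RB1*-knockout cells and 5.44% to 7.40% in abemaciclib. Their part in the results was not tested.

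Per kilobase of exon, *SPDEF* had the highest level of the 8 genes in each group and *NR3C1* the lowest. In DMSO-treated sgControl cells the mean was 15483 ± 1675 (SD, n = 3) normalised counts per kilobase for *SPDEF*, 9029 ± 554 for *GATA3*, 4457 ± 240 for *FOXA1* and 2124 ± 109 for *TFAP2C*. Below these came *ESR1* at 878 ± 146, *TFAP2A* at 665.2 ± 20.2, *PGR* at 348 ± 62.0 and *NR3C1* at 137 ± 7.7. *SPDEF* lay above 99.2% of 16700 protein-coding genes by its mean over the 12 libraries, *GATA3* above 98.9% and *NR3C1* above 54.6%. The order was the same in sgControl cells in abemaciclib. In *RB1*-knockout cells a single pair changed places: *TFAP2A*, at 862 ± 11.9 per kilobase in DMSO and 919 ± 32.5 in abemaciclib, stood above *ESR1*, at 609 ± 26.8 and 465 ± 28.2. In no group did the replicates of neighbours in the order overlap, although *TFAP2C* and *TFAP2A* came close in *RB1*-knockout cells in abemaciclib (lowest 971 and highest 951). Levels per kilobase assume that reads cover the whole transcript. The length used was that of all annotated exons of a gene together, which can exceed that of a single transcript, and the order depends on it.

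The values in each library are described by gene, first the receptors. *ESR1*, on the plus strand of chromosome 6 (151656691 to 152129619, GRCh38), had 9834, 12615 and 13711 normalised counts in DMSO-treated sgControl cells and 17473, 18712 and 18218 in abemaciclib. In *RB1*-knockout cells it had 8783, 8128 and 8166 counts in DMSO and 6169, 6833 and 6157 in abemaciclib. The 4 groups did not overlap at *ESR1*: sgControl cells were highest with the drug, and *RB1*-knockout cells were lowest with it.

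*PGR* is on the minus strand of chromosome 11 (101029624 to 101129813). Its counts were 4058, 5701 and 5562 in DMSO-treated sgControl cells and 6447, 6269 and 6152 in abemaciclib. They were 2924, 2881 and 2661 in DMSO-treated *RB1*-knockout cells and 5663.5, 6194 and 5747 in abemaciclib. Untreated *RB1*-knockout cells were thus the low group, and treated *RB1*-knockout cells overlapped both sgControl groups. Replicate 1 of DMSO-treated sgControl cells was low for *PGR* and for *ESR1* alike.

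*NR3C1*, on the minus strand of chromosome 5 (143277931 to 143435512), covered a narrow range. Its counts were 1181, 1322 and 1261 in DMSO-treated sgControl cells, 1334, 1390.4 and 1395 in abemaciclib, 1409.9, 1380.5 and 1371 in DMSO-treated *RB1*-knockout cells, and 1555, 1498 and 1508 in abemaciclib. The lowest library was an untreated sgControl one and the highest a treated *RB1*-knockout one.

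*FOXA1*, on the minus strand of chromosome 14 (37589552 to 37596059), followed the direction of *ESR1*. It had 18700, 20800 and 19524 counts in DMSO-treated sgControl cells and 27178, 28025 and 26037 in abemaciclib. In *RB1*-knockout cells there were 17128, 17145 and 16340.5 counts in DMSO and 15780, 15933 and 14863 in abemaciclib. The groups did not overlap, and treated sgControl cells stood apart from the rest.

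*GATA3*, on the plus strand of chromosome 10 (8045378 to 8075198), had 32235, 31169.5 and 28578 counts in DMSO-treated sgControl cells and 39283, 37929.6 and 34326 in abemaciclib. The counts were 33609, 35045 and 33835 in DMSO-treated *RB1*-knockout cells and 30857.5, 29072 and 28506 in abemaciclib. Treated *RB1*-knockout cells overlapped untreated sgControl cells, and untreated *RB1*-knockout cells overlapped treated sgControl cells.

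The AP-2 genes parted by genotype. *TFAP2A*, on the minus strand of chromosome 6 (10393186 to 10419659), had 5342, 5657 and 5405 counts in DMSO-treated sgControl cells, 6820.5, 6793 and 6142 in abemaciclib, 7155, 7132 and 6975 in DMSO-treated *RB1*-knockout cells, and 7821, 7565 and 7287 in abemaciclib. *TFAP2C*, on the plus strand of chromosome 20 (56629306 to 56639283), had 5999, 6552 and 6574 counts in DMSO-treated sgControl cells and 7982, 8236 and 7358 in abemaciclib. It had 3247.5, 3323 and 3414 counts in DMSO-treated *RB1*-knockout cells and 3247, 3101 and 2913 in abemaciclib. Each *RB1*-knockout library was thus above each sgControl library for *TFAP2A* and below each for *TFAP2C*.

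*SPDEF*, on the minus strand of chromosome 6 (34537802 to 34556333), had 33008, 29268 and 26628 counts in DMSO-treated sgControl cells and 31928, 29752 and 30778 in abemaciclib, and these groups overlapped. In *RB1*-knockout cells it had 24601.5, 26752 and 24919 counts in DMSO and 20346, 19306 and 20012 in abemaciclib. Treated *RB1*-knockout cells were below all other libraries.

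**Figure D1:**
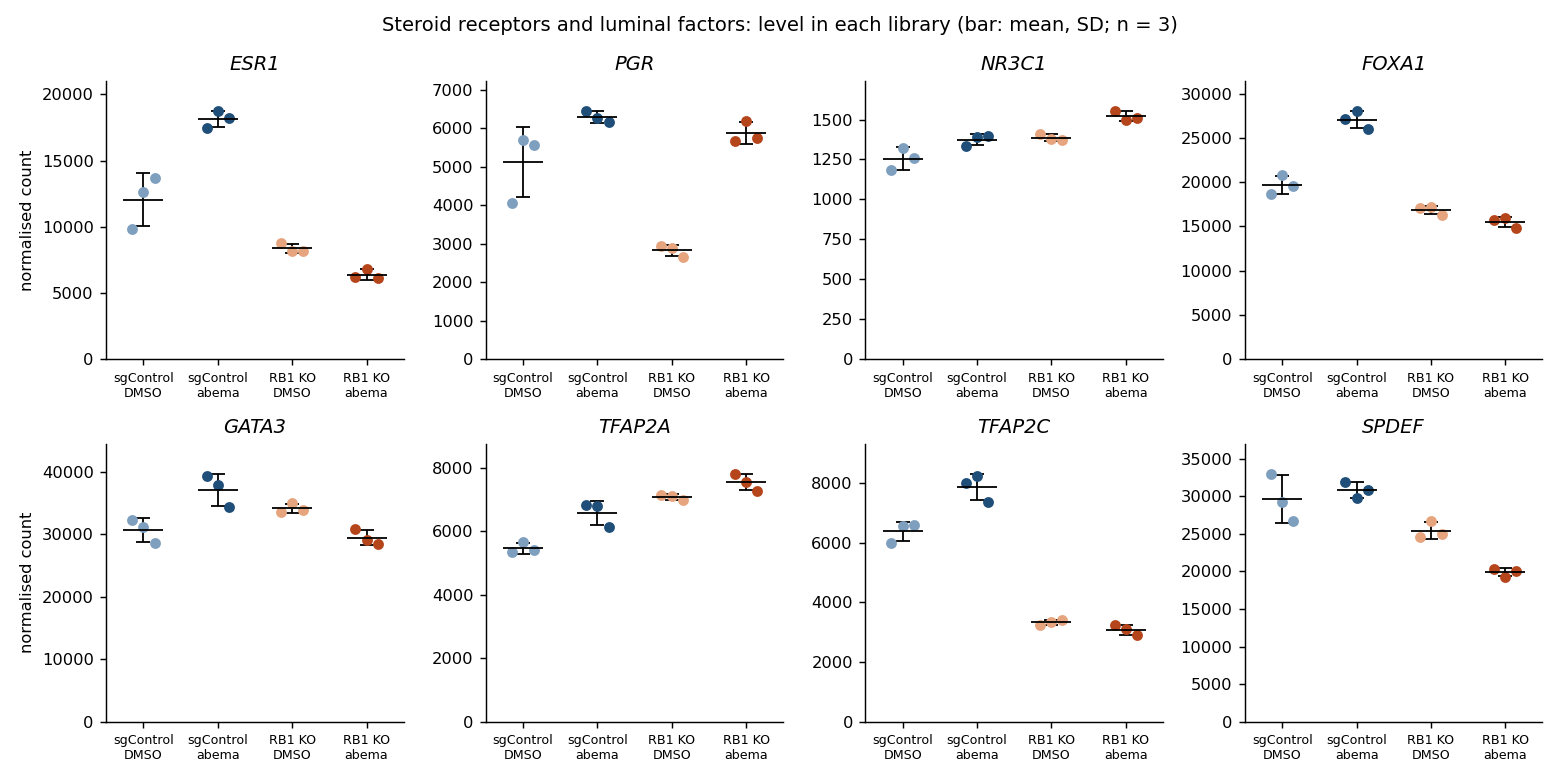
Normalised counts (y axes from 0) of the 8 genes in each of 12 libraries; points are libraries and bars the mean and SD of 3 replicates. By group mean, *ESR1*, *PGR*, *FOXA1*, *GATA3*, *TFAP2C* and *SPDEF* were highest in sgControl cells in abemaciclib. Among these, that group stood above all others without overlap at *ESR1*, *FOXA1* and *TFAP2C* alone. At *TFAP2A* it also overlapped no other group, but lay below the *RB1*-knockout groups. *PGR* was lowest in DMSO-treated *RB1*-knockout cells.

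In cells with intact *RB1*, abemaciclib raised 6 of the 8 genes, and all 8 values were positive. *ESR1* rose 1.504-fold and *FOXA1* 1.38-fold, and *PGR*, *GATA3*, *TFAP2A* and *TFAP2C* rose by 1.20- to 1.23-fold. The log2 fold change was 0.59 ± 0.10 (SE) for *ESR1* (adjusted p = 1.12e-08), 0.46 ± 0.06 for *FOXA1* (adjusted p = 2.43e-16), 0.28 ± 0.07 for *GATA3* (adjusted p = 5.56e-05), 0.27 ± 0.06 for *TFAP2A* (adjusted p = 3.81e-06), 0.30 ± 0.06 for *TFAP2C* (adjusted p = 7.28e-06) and 0.30 ± 0.10 for *PGR* (adjusted p = 0.00931). *NR3C1* had 0.13 ± 0.06 (adjusted p = 0.0656) and *SPDEF* 0.06 ± 0.07 (adjusted p = 0.573, 95% interval −0.09 to 0.20), and neither passed the threshold. All adjusted p-values are from the Wald test of DESeq2 with Benjamini-Hochberg adjustment over all genes tested, with the threshold at 0.05.

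These changes were read against a response that was broad. Of 23512 genes tested, 47.9% passed the threshold, 24.1% by being higher and 23.9% by being lower, and the replicates of the groups did not overlap for 54.4%, against 7 of the 8 genes here. The median absolute log2 fold change was 0.29 for the 8 genes and 0.61 over all genes tested. Fold changes were not shrunken, and genes with few counts were among those tested. This comparison of sizes, here and in *RB1*-knockout cells, is therefore not like for like. Changes as small as these depend on the scaling: with total-count factors the median gene moved by −0.13, the genes called split into 4529 higher and 6774 lower in place of 5657 and 5615, and 3 of the 8 genes passed the threshold. *PGR* (0.16, adjusted p = 0.304), *TFAP2A* (0.14, adjusted p = 0.0635) and *TFAP2C* (0.17, adjusted p = 0.0712) lost their call, *GATA3* kept it at 0.15 and *NR3C1* and *SPDEF* turned to −0.003 and −0.07. *PGR* also missed the threshold when the sgControl groups alone were fitted (adjusted p = 0.053), and its value was 0.16 ± 0.06 (adjusted p = 0.0091) without replicate 1 of DMSO-treated sgControl cells. *ESR1* kept its call under all 19 alternatives, but its value ranged from 0.449 to 0.69, and from 0.461 to 0.69 with 1 library left out.

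Without *RB1*, the drug moved the receptors in opposite directions. *PGR* rose 2.08-fold, its largest change in the experiment, while *ESR1* fell to 0.764 of its level in DMSO. *SPDEF* and *GATA3* also fell, to 0.782 and 0.863. The log2 fold changes were 1.06 ± 0.11 for *PGR* (SE, adjusted p = 6.08e-22), −0.39 ± 0.10 for *ESR1* (adjusted p = 0.000656), −0.35 ± 0.07 for *SPDEF* (adjusted p = 1.49e-05) and −0.21 ± 0.07 for *GATA3* (adjusted p = 0.0052). The other 4 genes did not pass the threshold, with 0.13 ± 0.06 for *NR3C1* (adjusted p = 0.0941), −0.12 ± 0.06 for *FOXA1* (adjusted p = 0.0859), 0.09 ± 0.06 for *TFAP2A* (adjusted p = 0.208) and −0.11 ± 0.07 for *TFAP2C* (adjusted p = 0.218).

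Of 18506 genes tested in *RB1*-knockout cells, 30.1% passed the threshold, with 15.0% higher and 15.1% lower, and the replicates of the groups did not overlap for 49.5%, compared with 8 of the 8 genes. The change of *PGR* was larger in absolute size than that of 92.6% of the genes tested, and the median absolute log2 fold change of the 8 genes was 0.17, with 0.23 over all genes tested. *FOXA1* passed the threshold when the *RB1*-knockout groups alone were fitted (−0.13 ± 0.04, adjusted p = 0.00545) and without replicate 1 of DMSO-treated sgControl cells (−0.12 ± 0.05, adjusted p = 0.0258).

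**Figure D2:**
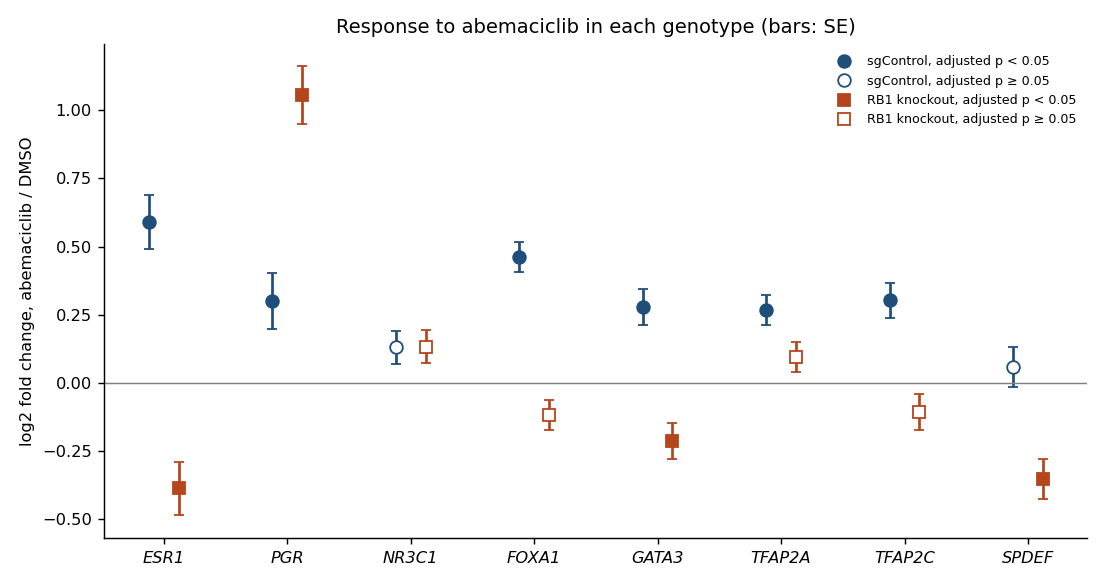
Log2 fold change of abemaciclib against DMSO (y axis, bars SE) for each gene in sgControl cells (circles) and *RB1*-knockout cells (squares); filled symbols passed the threshold. *PGR* lay at 0.30 and 1.06, whereas *ESR1* lay at 0.59 and −0.39.

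A direct test of how the responses differ used the interaction, the log2 fold change in *RB1*-knockout cells minus that in sgControl cells. It passed the threshold for 6 of the 8 genes. *ESR1* had the largest at −0.98 ± 0.14 (SE, adjusted p = 2.66e-11), followed by *FOXA1* at −0.58 ± 0.08 (adjusted p = 6.89e-13), *GATA3* at −0.49 ± 0.09 (adjusted p = 4.78e-07), *TFAP2C* at −0.41 ± 0.09 (adjusted p = 3.35e-05) and *SPDEF* at −0.41 ± 0.10 (adjusted p = 0.000292). *PGR* was the exception in sign, at 0.76 ± 0.15 (adjusted p = 1.62e-06): without *RB1* the response of the oestrogen receptor gene was lower and that of the progesterone receptor gene higher. For *NR3C1* the difference was 0.00 ± 0.09 (adjusted p = 0.988), with a 95% interval of −0.17 to 0.17. *TFAP2A* had −0.18 ± 0.08 (adjusted p = 0.0567), which passed without replicate 3 of sgControl cells in abemaciclib (−0.23, adjusted p = 0.00587) and without replicate 1 of *RB1*-knockout cells in abemaciclib (−0.20, adjusted p = 0.049). Among 21008 genes tested, 41.2% passed the threshold, 21.0% with a positive and 20.2% with a negative difference, compared with 1 and 5 of the 8 genes. Total-count factors moved the median gene by 0.14 and the split of calls from 4415 positive and 4250 negative to 5466 and 3099; under them *TFAP2C* was at −0.27 (adjusted p = 0.0421).

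*RB1* knockout was next compared with sgControl on each treatment, in comparisons that share their libraries with the responses above. In DMSO, *TFAP2C* was 1.92-fold lower, *PGR* 1.81-fold lower and *ESR1* 1.44-fold lower in *RB1*-knockout cells, and *TFAP2A* was 1.30-fold higher. The log2 fold changes were −0.94 ± 0.07 for *TFAP2C* (SE, adjusted p = 2.86e-45), −0.86 ± 0.11 for *PGR* (adjusted p = 9.38e-15), −0.53 ± 0.10 for *ESR1* (adjusted p = 1.13e-06) and 0.37 ± 0.06 for *TFAP2A* (adjusted p = 2.1e-10). *FOXA1* was lower by a smaller amount (−0.22 ± 0.06, adjusted p = 0.000353), as was *SPDEF* (−0.22 ± 0.07, adjusted p = 0.0107), whose replicates overlapped. *SPDEF* was at −0.14 ± 0.05 (adjusted p = 0.0312) without replicate 1 of DMSO-treated sgControl cells, and missed the threshold without *RB1*-knockout replicate 1 in DMSO (adjusted p = 0.072), without replicate 3 of that group (adjusted p = 0.0581) and when these groups alone were fitted (adjusted p = 0.0541). *NR3C1* had 0.14 ± 0.06 (adjusted p = 0.0612) and *GATA3* 0.16 ± 0.07 (adjusted p = 0.0503), and *GATA3* passed under 5 of the alternatives. In all, 1 gene was higher and 5 lower, against 16.2% and 15.2% of 19757 genes tested (31.4% in either direction), and the replicates did not overlap for 7 of the 8 genes and for 41.8% of the genes tested.

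In abemaciclib the values for *ESR1*, *TFAP2C*, *FOXA1* and *SPDEF* lay further below 0 than in DMSO. *GATA3* changed sign, from 0.16 in DMSO to −0.34 in abemaciclib. The values for *PGR* and *TFAP2A* lay nearer to 0 than in DMSO, and that for *NR3C1* was about the same. *ESR1* was 2.84-fold lower in *RB1*-knockout cells, *TFAP2C* 2.55-fold, *FOXA1* 1.74-fold, *SPDEF* 1.55-fold and *GATA3* 1.26-fold lower. Their log2 fold changes were −1.51 ± 0.10 (SE, adjusted p = 6.44e-51), −1.35 ± 0.07 (adjusted p = 4.52e-95), −0.80 ± 0.06 (adjusted p = 2.43e-47), −0.63 ± 0.07 (adjusted p = 4.1e-17) and −0.34 ± 0.07 (adjusted p = 7.78e-07). *TFAP2A* was higher by 0.20 ± 0.06 (adjusted p = 0.000728). *PGR* did not pass the threshold (−0.10 ± 0.10, adjusted p = 0.442, 95% interval −0.30 to 0.10), and turned to 0.02 with total-count factors. *NR3C1* was higher by 0.15 ± 0.06 (adjusted p = 0.0328), but not with the replicate number as a block (0.15 ± 0.07, adjusted p = 0.063), nor when any 1 of the 6 libraries compared was left out (adjusted p = 0.0615 to 0.15). With 53.9% of 22260 genes passing the threshold (27.5% higher, 26.4% lower) and 64.1% with no overlap between replicates, the 2 genes higher, 5 lower and 7 without overlap were read against a background in which a change was the usual result.

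**Figure D3:**
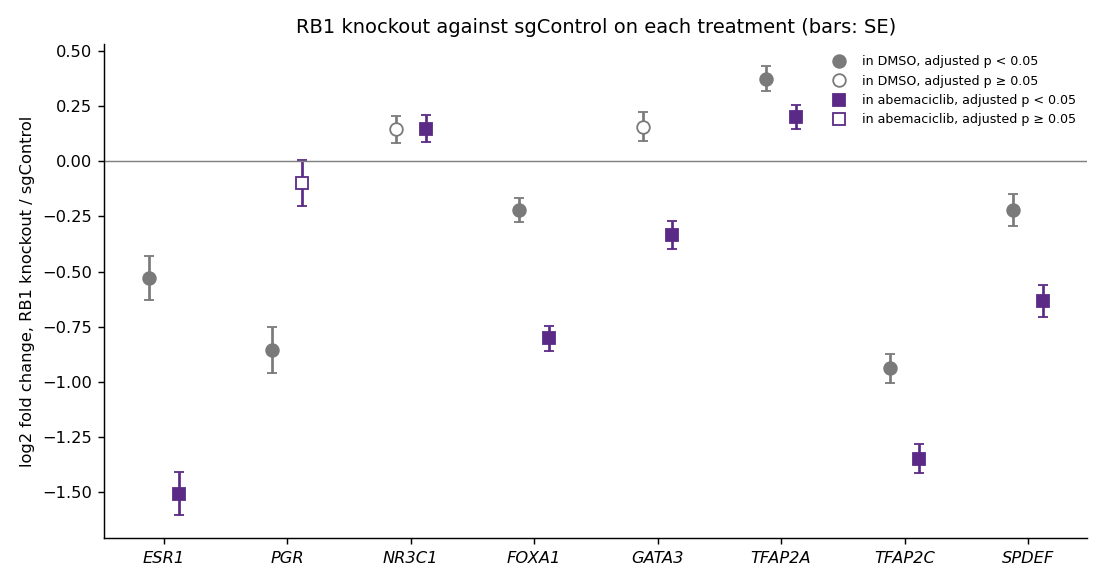
Log2 fold change of *RB1* knockout against sgControl (y axis, bars SE) for each gene in DMSO (circles) and in abemaciclib (squares); filled symbols passed the threshold. *TFAP2C* lay at −0.94 and −1.35, and *TFAP2A* above 0 on both treatments.

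Ratios of raw counts within a library do not depend on the scaling. For the AP-2 paralogues, the ratio of *TFAP2C* to *TFAP2A* was 1.166 ± 0.047 (SD, n = 3) in DMSO-treated sgControl cells and 1.194 ± 0.021 in abemaciclib. It was 0.470 ± 0.018 in DMSO-treated *RB1*-knockout cells and 0.408 ± 0.008 in abemaciclib, so the genotypes did not overlap. The ratio of *PGR* to *ESR1* was 0.423 ± 0.025 in DMSO-treated sgControl cells, 0.347 ± 0.019 in abemaciclib and 0.338 ± 0.015 in DMSO-treated *RB1*-knockout cells. In *RB1*-knockout cells in abemaciclib it was 0.919 ± 0.014, apart from all other libraries. *NR3C1* to *ESR1* went from 0.106 ± 0.014 to 0.076 ± 0.001 with the drug in sgControl cells and from 0.166 ± 0.005 to 0.239 ± 0.017 in *RB1*-knockout cells. These ratios are not corrected for length and describe the groups, not which gene of a pair is the more abundant.

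**Figure D4:**
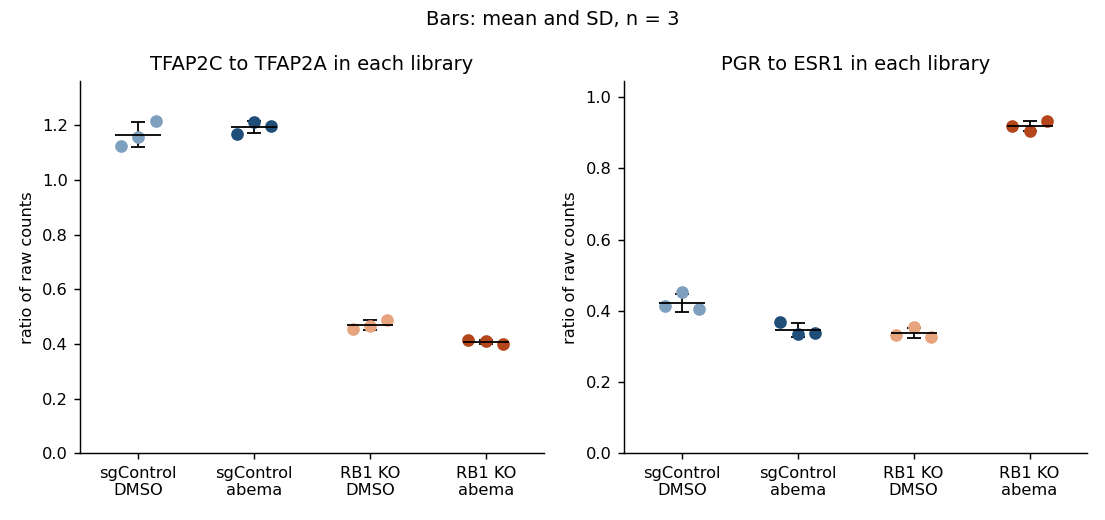
Ratio of raw counts (y axis, from 0) of *TFAP2C* to *TFAP2A* and of *PGR* to *ESR1* in each of 12 libraries; points are libraries and bars the mean and SD of 3 replicates. The *PGR* to *ESR1* ratio was 0.919 in *RB1*-knockout cells in abemaciclib and 0.338 to 0.423 in the other groups.

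The lists below were chosen with earlier results of these data known, so an excess in a list is not independent support. Counts for lists of genes are read against all genes tested. Of those, 24.1% were called higher and 23.9% lower for abemaciclib in sgControl cells and 15.0% and 15.1% in *RB1*-knockout cells. For the difference between the responses the shares were 21.0% and 20.2%, and for *RB1* knockout against sgControl 16.2% and 15.2% in DMSO and 27.5% and 26.4% in abemaciclib.

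Of 15 oestrogen receptor target genes listed for this comparison, 12 rose and 2 fell with abemaciclib in sgControl cells, whereas without *RB1* 7 rose and 4 fell, with medians of 0.89 and 0.34 beside 0.01 and 0.02 over all genes. *PDZK1*, a scaffold protein gene, had 1031, 1241 and 1249.8 counts in DMSO-treated sgControl cells and 60811.5, 57655 and 61122 in abemaciclib, and its log2 fold change was 5.67 ± 0.08 (SE) there and 1.11 ± 0.10 in *RB1*-knockout cells. *TFF1*, a secreted trefoil peptide gene, changed by 2.56 ± 0.11 with *RB1* and by −0.86 ± 0.11 without it. *TFF1* therefore had the signs of *ESR1* in both genotypes. *STC2* (0.87 ± 0.08 and −0.91 ± 0.09) had them too. *CXCL12*, a chemokine gene, rose in both (1.05 ± 0.13 and 2.21 ± 0.14), more so without *RB1* (difference 1.16 ± 0.19, adjusted p = 1.35e-08), which is the pattern of *PGR*. The difference was negative for 9 and positive for 3 of the 15. *RB1* knockout against sgControl gave 2 higher and 10 lower in DMSO and 3 higher and 12 lower in abemaciclib, where *RAB31*, a small GTPase gene, was among those higher (2.99 ± 0.08).

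**Figure D5:**
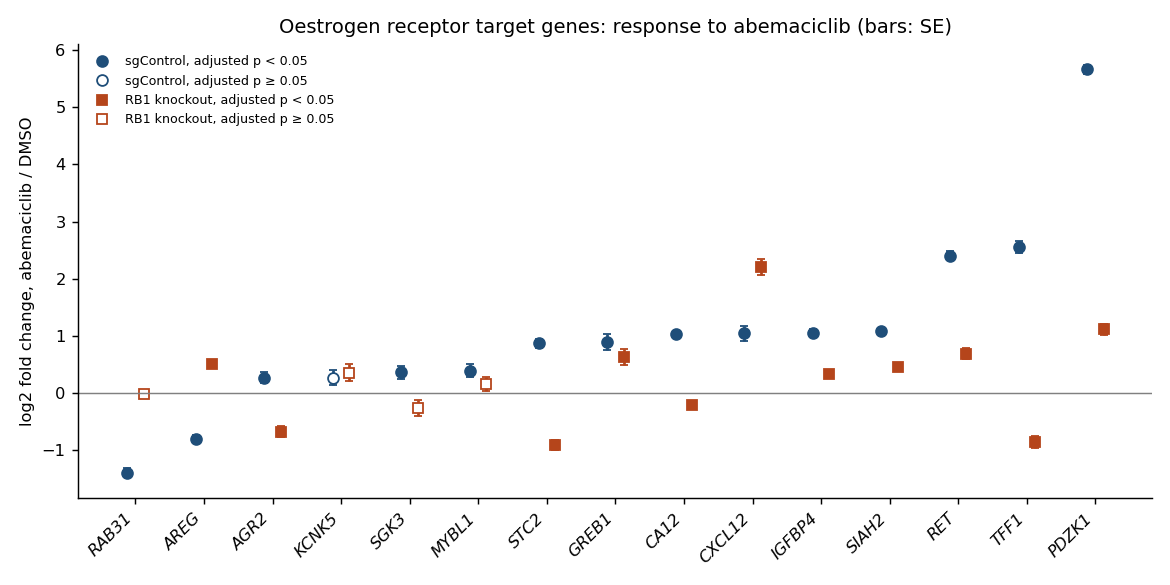
Log2 fold change of abemaciclib against DMSO (y axis, bars SE) for 15 oestrogen receptor target genes in sgControl cells (circles) and *RB1*-knockout cells (squares), ordered by the sgControl value; filled symbols passed the threshold. *TFF1* lay at 2.56 and −0.86 and *CXCL12* at 1.05 and 2.21.

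Among 19 other luminal factor genes, 11 rose and 5 fell with abemaciclib in sgControl cells, where 24.1% of all genes rose and 23.9% fell, and their median was 0.32 beside 0.01 over all genes. In *RB1*-knockout cells 2 rose and 5 fell, against 15.0% and 15.1% of all genes, with a median of −0.09 beside 0.02. *EHF*, an ETS factor gene, rose by 0.88 ± 0.06 (SE) in sgControl cells, and its difference between the responses was −0.97 ± 0.09. *CREB3L1*, which encodes a membrane-bound factor of the secretory pathway, rose by 0.999 ± 0.095 in sgControl cells and fell by 0.69 on the log2 scale in *RB1*-knockout cells. The difference between the responses was negative for 11 and positive for 1 of these genes. In *RB1*-knockout against sgControl cells, 5 were higher and 8 lower in DMSO and 5 higher and 11 lower in abemaciclib, *XBP1*, the unfolded protein response factor gene, among the former 8 (−0.77 ± 0.08) and *EHF* among the latter 11 (−2.39 ± 0.06). Over all genes 31.4% were called between the genotypes in DMSO and 53.9% in abemaciclib.

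Family members outside the 8 did not all follow them. Of 13 paralogues, 9 were tested in sgControl cells, where 4 rose and 2 fell, and 7 in *RB1*-knockout cells, where 1 rose and 3 fell (medians 0.07 and −0.19). *NR3C2*, the mineralocorticoid receptor gene and nearest relative of *NR3C1*, fell in sgControl cells (−1.004 ± 0.099, SE), rose in *RB1*-knockout cells (0.58 ± 0.09) and differed between the responses by 1.58 ± 0.13 (adjusted p = 8.37e-31), unlike *NR3C1* itself. *FOXA3* fell in both genotypes (−1.42 ± 0.09 and −0.51 ± 0.09), the opposite of *FOXA1* in sgControl cells. *GATA6* rose in sgControl cells (0.88 ± 0.07) and was at −0.11 ± 0.07 (adjusted p = 0.23) in *RB1*-knockout cells. *TFAP2B* was higher in DMSO-treated *RB1*-knockout cells by 0.30 ± 0.04, the direction of *TFAP2A*. In abemaciclib its mean normalised counts lay close, at 9611 in sgControl and 9889 in *RB1*-knockout cells. The mean of *RB1*-knockout cells in DMSO was 11284, so *TFAP2B* was lower with the drug there, unlike *TFAP2A*. The difference between the responses was positive for 2 and negative for 5 of 9 paralogues tested. *RB1* knockout gave 4 higher and 1 lower of 8 tested in DMSO, and 2 higher and 3 lower of 9 in abemaciclib.

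Of 35 other nuclear receptor genes, a list that also holds *NR3C2*, 16 rose and 11 fell in sgControl cells, and 10 rose and 7 fell of the 34 tested without *RB1* (medians 0.15 and 0.06). The difference between the responses was positive for 9 and negative for 11, and *RB1* knockout against sgControl gave 8 higher and 9 lower in DMSO and 13 higher and 16 lower in abemaciclib. *NR2F1*, an orphan receptor gene, was higher in *RB1*-knockout cells by 2.50 ± 0.06 (SE) in DMSO and 3.31 ± 0.07 in abemaciclib.

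Of 13 glucocorticoid receptor target genes with counts, 8 rose and 2 fell with the drug in sgControl cells and 7 rose and 1 fell in *RB1*-knockout cells (medians 0.36 and 0.23), while *NR3C1* did not pass the threshold in either. *DUSP1*, a phosphatase gene that is also an immediate early gene, rose by 3.26 ± 0.13 (SE) and 2.52 ± 0.13. The metallothionein gene *MT2A* fell by 3.87 and 0.45 on the log2 scale. The difference between the responses was positive for 4 and negative for 5, and *RB1* knockout gave 2 higher and 5 lower in DMSO and 6 higher and 5 lower in abemaciclib. *TSC22D3*, which encodes the glucocorticoid-induced leucine zipper, was lower with *RB1* knocked out in DMSO (−0.83 ± 0.08) and in abemaciclib (−1.73 ± 0.08).

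Of 10 chaperone genes, whose proteins hold steroid receptors ready for hormone, 0 rose and 7 fell in sgControl cells, *PTGES3*, the p23 cochaperone gene, most (−0.997 ± 0.069, SE). The medians were −0.44 in sgControl and −0.11 in *RB1*-knockout cells. In the latter 0 rose and 4 fell; 7 passed without replicate 1 of DMSO-treated sgControl cells or when the *RB1*-knockout groups alone were fitted. No chaperone rose at an unadjusted p under 0.05 in DESeq2 (0 of 10 in either genotype), nor was one called higher by edgeR (0 of 10). The difference was positive for 6 and negative for 1. *RB1* knockout gave 1 higher and 3 lower in DMSO, where 8 in all passed without replicate 1 of DMSO-treated sgControl cells, and 6 higher and 1 lower in abemaciclib. Of 20 coregulators, 7 rose and 5 fell in sgControl cells, and 1 rose and 2 fell in *RB1*-knockout cells (6 in all without replicate 1 of DMSO-treated sgControl cells or with these groups alone). Over all genes 47.9% were called in sgControl and 30.1% in *RB1*-knockout cells, and the medians of the coregulators were 0.01 and −0.05, beside 0.01 and 0.02. *NRIP1*, a corepressor gene that is itself oestrogen-induced, rose in both (0.93 ± 0.11 and 0.59 ± 0.11), and *CITED2*, a transcriptional coactivator gene, rose by 1.36 ± 0.06 and fell by 0.52 on the log2 scale. For coregulators the difference was positive for 4 and negative for 5, and *RB1* knockout gave 4 higher and 2 lower in DMSO and 7 higher and 4 lower in abemaciclib.

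Marker levels of other lineages are given beside these counts. The 10 luminal epithelial markers summed to 13860 to 16620 CPM (counts scaled to a common library total) in DMSO-treated sgControl cells, 14210 to 15010 in abemaciclib, 16620 to 17600 in DMSO-treated *RB1*-knockout cells and 19610 to 20240 in abemaciclib. The 12 basal and myoepithelial markers summed to 145 to 154, 86.4 to 98.0, 221 to 230.4 and 268 to 294 CPM in the same order. Mesenchymal markers (9 genes) summed to 30.9 to 40.8, 41.7 to 46.0, 32.1 to 36.5 and 57.7 to 63.9, and stromal and immune markers (12 genes) to 37.1 to 47.8, 49.4 to 54.7, 35.6 to 37.2 and 48.7 to 51.3. The luminal sum mixed markers that moved in opposite directions. Where *RB1* was intact, abemaciclib left 3 of the 10 called higher and 6 called lower (median log2 fold change −0.26). Without *RB1* the counts were 6 and 1 (median 0.23). The mean normalised count of *KRT19* in sgControl cells went from 230726 to 348802 and that of *KRT8* from 306261 to 202871. The marker genes named here were picked after their values were seen. The part of the markers in the results was not tested. In bulk RNA, fewer cells with a transcript and less of it per cell cannot be told apart.

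Of 13 annotated genes that overlap the 8, 7 had counts under their symbol, and the other 6, which have no symbol in the annotation used here, were not analysed. One of those 6, ENSG00000284615, shares 135 exon bases with *ESR1* on the same strand. In the annotation *PGR* shares 737 exon bases with *PGR-AS1* on the opposite strand, which had 10 to 35 raw counts per library. *TFAP2A* shares 941 with *TFAP2A-AS2* (2 to 20 counts) and 438 with *TFAP2A-AS1* (27 to 52), and *FOXA1* shares 16 with *TTC6* (207 to 501). *PGR-AS1* fell in *RB1*-knockout cells with the drug (−1.01 ± 0.39, SE, adjusted p = 0.0376), where *PGR* rose, and had 0.13 ± 0.35 (adjusted p = 0.808) in sgControl cells. *GATA3-AS1* (431 to 785 counts) and *SYNE1* (174 to 438), which overlap *GATA3* and *ESR1*, share no exon base with them. Whether the authors counted by strand is not given in the sources used here. Among 7 antisense and divergent neighbours tested, 2 rose and 1 fell in sgControl cells and likewise without *RB1*. The difference was positive for 1 and negative for 1, and *RB1* knockout gave 2 higher and 3 lower in abemaciclib. In DMSO 0 were called by DESeq2, 0 by edgeR and 0 had an unadjusted p under 0.05 in DESeq2. *CCDC170*, next to *ESR1*, rose in both genotypes (0.65 ± 0.07 and 0.29 ± 0.07), whereas *ESR1* rose in one and fell in the other.

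The promoters of *PGR* and *GATA3* are shown because these genes moved in opposite directions with the drug in *RB1*-knockout cells and their sequence before the main start site lies outside the exons of each gene. Each is the 250 bases before that start, 5′ to 3′ on the gene's strand, from RefSeq on GRCh38.p14: chr11:101129814-101130063 (minus strand) for *PGR* and chr10:8054438-8054687 (plus strand) for *GATA3*. Capitals mark matches to the motifs named below.
PGR: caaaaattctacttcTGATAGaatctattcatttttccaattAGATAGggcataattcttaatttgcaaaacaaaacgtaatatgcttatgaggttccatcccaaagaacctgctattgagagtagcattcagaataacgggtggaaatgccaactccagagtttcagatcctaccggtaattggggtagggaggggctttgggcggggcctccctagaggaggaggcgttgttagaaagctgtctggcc
GATA3: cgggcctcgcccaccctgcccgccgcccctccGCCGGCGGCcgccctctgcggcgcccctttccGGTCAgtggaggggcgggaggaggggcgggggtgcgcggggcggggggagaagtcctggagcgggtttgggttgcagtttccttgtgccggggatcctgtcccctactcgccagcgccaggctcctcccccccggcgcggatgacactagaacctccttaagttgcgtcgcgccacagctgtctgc
The capitals in *PGR* are matches to a GATA motif (AGATAA, also searched with a first T, a last G or both) at −235 and −208 from the start. In *GATA3* they are an AP-2 motif (GCCNNNGGC) at −218 and an oestrogen response core (GGTCA) at −186. Of 35116 promoter windows of this length, 22.3% held the GATA motif, 19.8% the AP-2 motif and 32.6% the core. Both strands were searched. RefSeq windows were found for 7 of the 8 genes, all but *TFAP2C*, and the one nearest the main start was used, which lay 2683 bases from it for *TFAP2A* and at it for the others. None of the 7 held an E2F motif (TTTGGCGC, TTTCCCGC, TTTGCCGC or TTTCGCGC, in 2.79% of promoters), the oestrogen response element GGTCANNNTGACC (0.0399%), which contains the core on both strands, or the glucocorticoid and progesterone response core AGAACA (12.4%). The forkhead motif (TGTTTAC, also searched with its A replaced by G, in 6.09%) occurred in *FOXA1* alone, at −235. A match is a description of letters and not of a bound site.

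Finally, the genes whose pattern over the 12 libraries was most like that of each of the 8 were found among 11050 protein-coding genes, by the root mean square difference of log2(normalised count + 1) centred on each gene's mean. Nearest to *ESR1* were *SEC24D* (0.09) and *ARRDC4* (0.10), beside a spread of *ESR1* itself of 0.58. *SEC24D*, a COPII coat gene, had a mean of 4293 ± 416 (SD, n = 3) counts in DMSO-treated sgControl cells, 7053 ± 271 in abemaciclib, 2862 ± 89.4 in DMSO-treated *RB1*-knockout cells and 2402 ± 64.4 in abemaciclib, which is the order of *ESR1*. *PGR* had the most distant neighbours, *CCDC122* (0.18) and *SLC1A1* (0.19), against its own spread of 0.47.

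The other neighbours were *CANX* and *FEM1B* for *NR3C1* (0.05 each), *TXNDC11* and *CYFIP1* for *FOXA1* (0.06 each), *MED25* and *CYB5R3* for *GATA3* (0.05 each), *SBK1* and *CASKIN2* for *TFAP2A* (0.05 each), *DUSP5* (0.10) and *DNAJC10* (0.11) for *TFAP2C*, and *RUSF1* and *TSR2* for *SPDEF* (0.04 each). Among the 8 genes themselves the closest pair was *NR3C1* and *TFAP2A* (0.10), the next *ESR1* and *TFAP2C* (0.19), and the most distant the paralogues *TFAP2A* and *TFAP2C* (0.72). These values describe likeness over 12 libraries that share 4 groups.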

How the data were processed

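RNA of 12 ZR-75-1 libraries was sequenced. The authors trimmed reads with BBDuk, aligned them to hg38 with STAR 2.7.5b and deposited raw counts per gene from featureCounts 2.0.1 (GENCODE release 35), neither normalised nor pooled. Strand use and the handling of reads with several alignments are not given in the sources used here. The labels name a directional whole-transcript kit and the study's general methods a 3′ kit; with the latter, levels per kilobase would not hold.

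The 44 rows without a gene name (0.0% of counts) were left out. Total counts were 39907318 to 81636393 per library, and the lowest raw count of any of the 8 genes was 1032 (*NR3C1*). DESeq2 1.42.0 (R 4.3.3) was fitted once to all 12 libraries with a term for group, median-of-ratios size factors and no shrinkage. Two-sided Wald tests gave 5 contrasts, adjusted by Benjamini-Hochberg over the genes left by independent filtering and called under 0.05. The script was tested on simulated data. The replicate numbers were taken to pair the samples for *RB1* knockout against sgControl in abemaciclib, where same-numbered libraries deviated together in each pair (correlations 0.15, 0.259 and 0.112); elsewhere at least 1 pair did not. Positions and exon lengths are from GENCODE release 44.

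The 8 genes and all lists were chosen with earlier results of these data known. Named from each list were up to 4 genes per contrast, those with the largest change among called genes with a mean normalised count of at least 100; *RB1* and genes overlapping the 8 were named too. Some genes that this rule selects are not reported here. For each of the 8 genes, the 2 nearest genes were named. Alternatives were edgeR 4.0.16, TMM or total-count factors, 2 filters on low counts, the groups compared alone, a replicate block, and leaving out each library.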

Additional observations from a re-analysis of the deposited data

Results flagged for a closer look

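For 6 of the 8 genes the response to abemaciclib differed between the genotypes which was tested directly with the interaction term in DESeq2. On the log2 scale, as *RB1*-knockout response minus sgControl response, the difference was −0.98 for *ESR1*, −0.58 for *FOXA1*, −0.49 for *GATA3*, −0.41 for *TFAP2C* and −0.41 for *SPDEF*, and 0.76 for *PGR*. Every one of these kept its sign and its call under each of the 18 alternatives run for it, *TFAP2C* with an adjusted p of up to 0.0421. The cause was not tested.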

How the results depend on the processing

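Of 752 values of the 8 genes under the alternatives, 716 kept their direction and side of the threshold, 8 changed sign, 14 lost the call and 14 gained it. The counts of genes called stayed within 1.5 times for each contrast. With total-count factors 3 in place of 6 of the 8 genes were called for the response in sgControl cells, *NR3C1* and *SPDEF* reversed there (−0.003 and −0.07), and *PGR* reversed between the genotypes in abemaciclib (0.015); these factors moved the median gene by −0.13, 0.14 and 0.12 for the response in sgControl cells, the interaction and the genotypes in abemaciclib. *SPDEF* also reversed in sgControl cells without replicate 3 in DMSO (−0.017), and the interaction of *NR3C1* without replicate 2 of sgControl in DMSO (−0.033), replicate 1 of sgControl in abemaciclib (−0.019), replicate 3 of *RB1* knockout in DMSO (−0.003) and replicate 1 of *RB1* knockout in abemaciclib (−0.015), with 0.044 as its highest value with a library left out. None of these values had been called.

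The replicate block was fitted to all 12 libraries with replicate effects shared by the 4 groups, and was not a paired fit of the compared groups alone. This block took the call from *NR3C1* between the genotypes in abemaciclib (adjusted p = 0.063) and changed no other call of the 8 genes there. In that comparison the replicate numbers were taken to pair the samples, from the correlations alone. The labels state no pairing, and the main fit had no term for it. Elsewhere the numbers were not taken to pair samples. There the block gave calls to *TFAP2A* in the interaction (adjusted p = 0.0493) and *GATA3* between the genotypes in DMSO (adjusted p = 0.0134). Leaving out 1 library at a time, 10318 to 11365 genes were called for the response in sgControl cells, 4341 to 6692 in *RB1*-knockout cells, 8044 to 9316 for the interaction, and 4977 to 6628 and 10903 to 12452 between the genotypes in DMSO and abemaciclib; of the 8 genes, 6 or 7, 4 or 5, 6 or 7, 5 to 7 and 6 or 7 were called. Of the 16 nearest genes, 14 stayed with CPM and 15 with a mean of at least 10. With 3 libraries a group, the standard errors of the 8 genes were 0.055 to 0.147 on the log2 scale, which limits what could be called.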
